A study of Drosophila melanogaster with 12 samples.

Results

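The genes described are those for aminoacyl-tRNA synthetases, the enzymes that join each amino acid to its transfer RNA. They were chosen by symbol, as an amino acid name followed by RS for the cytosolic enzymes and by RS-m for the mitochondrial ones. The RefSeq gene table holds 35 such genes, 20 cytosolic and 15 mitochondrial, and 31 of them had a probe that carries 1 gene symbol, out of 12058 genes with such a probe. Of these 31 genes, 18 are cytosolic and 13 mitochondrial. AspRS, MetRS and AlaRS-m had no probe here, and the probe of SerRS-m is shared with another gene and was left out.

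A synthetase activates its amino acid with ATP and transfers it to the matching tRNA, and the charged tRNA is then brought to the ribosome by an elongation factor. Animal cells make separate charged pools for the cytosol and for the mitochondrion. The mitochondrial enzymes are encoded in the nucleus and imported, and they serve only the few proteins of the respiratory chain that are translated inside the organelle. Growing tissues such as the larval wing imaginal disc, the epithelial sac that forms the adult wing and notum, depend on the cytosolic enzymes for protein synthesis.

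By the study's methods, wing discs came from wandering larvae early in the last instar, staged by the blue of a dyed food in the gut. The genotypes were w1118;+;ash2-I1, w1118;+;ash2-112411 and w1118;+;ash1-22 over ash1-22-F2A. The ash2 and ash1 genes belong to the trithorax group, whose products keep genes active through development. By the study's account, ash2-I1 larvae die late in larval life or early in the pupa, ash2-112411 is a weaker allele with a few adult escapers, and ash1-22 is a null allele. Each mutant was compared with 1 pool of RNA from discs of the isogenic w1118;+;+ line. Chromosomes X, Y and 2 of that line were crossed into each mutant stock, so the third chromosome, which carries ash1 and ash2, came from the stock itself. Each allele has 4 arrays from 2 RNA extractions, and the 2 arrays of an extraction carry the same amplified RNA with the dyes exchanged. The study's methods call the pairs of arrays biological replicates, with RNA from different extractions. Nothing in the labels says that the extractions came from separate crosses, so p-values measure the spread between extractions, which may be technical. No SE includes the error of the pool, which all alleles have in common.

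All values are log2 ratios of mutant over reference, so a negative value is a lower transcript level in the mutant. Errors are standard errors (SE) of the mean of 2 extractions, from a limma fit with 1 spread per probe for all alleles. The dyes of an extraction were averaged first, so no SE or p-value of this fit includes the gap between them. In ash2-112411 the dye-swapped arrays correlated at −0.37 (extraction 1) and −0.77 (extraction 2) as deposited, where agreement gives a negative value. Arrays of the same dye correlated at 0.83 (Cy5) and 0.94 (Cy3) between its extractions. The words rose and fell are kept for genes with an adjusted p under 0.05 (Benjamini and Hochberg's method over all probes tested in the allele) and a change over 1.5-fold. Where a gene has several probes, the one with values on more arrays stands for it. In ash2-112411 all 31 synthetase genes could be tested, in ash1-22 30 and in ash2-I1 29. ThrRS, for threonine, was not tested in ash2-I1 or ash1-22, and ArgRS-m, for mitochondrial arginine, was measured in only 1 extraction of ash2-I1, at 0.26 and 0.41.

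The 12 arrays gave values for 5804 to 11179 spots. The ash2 probe was at a log2 ratio of −1.75 ± 0.16 in ash2-I1 and −1.62 ± 0.16 in ash2-112411, and at 0.26 ± 0.16 (adjusted p = 0.2975) in ash1-22. No probe of ash1 with a single symbol was used. Over all genes tested, 5.44%, 8.35% and 1.80% rose and 6.74%, 8.63% and 1.18% fell in ash2-I1, ash2-112411 and ash1-22. Of the wing disc marker genes tested, 5 of 6 fell in ash2-I1, 4 of 7 fell and 1 rose in ash2-112411, and 1 of 8 fell in ash1-22. Muscle markers rose as well, 3 of the 6 tested for ash2-I1, 2 of 7 for ash2-112411 and 3 of 7 for ash1-22, as did 1, 2 and 1 of 4 tracheal markers. The neuronal marker elav fell in ash2-I1 (−0.996), 1 of 2 tested, and the hemocyte marker eater rose in ash2-112411 (0.60), 1 of 3. None of the fat body and salivary gland markers that could be tested rose or fell. Only 2, 3 and 2 of 7 fat body genes were tested in ash2-I1, ash2-112411 and ash1-22, some with wide errors. In that order, Lsp2 was at −1.76, 0.44 and 1.92 (SE 0.865 each) and Fbp1 at −0.20, −0.28 and 1.07 (SE 0.448 each). The part of such cells in the values below was not tested. In whole discs, fewer cells of a type and less RNA per cell cannot be told apart.

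**Figure D1:**
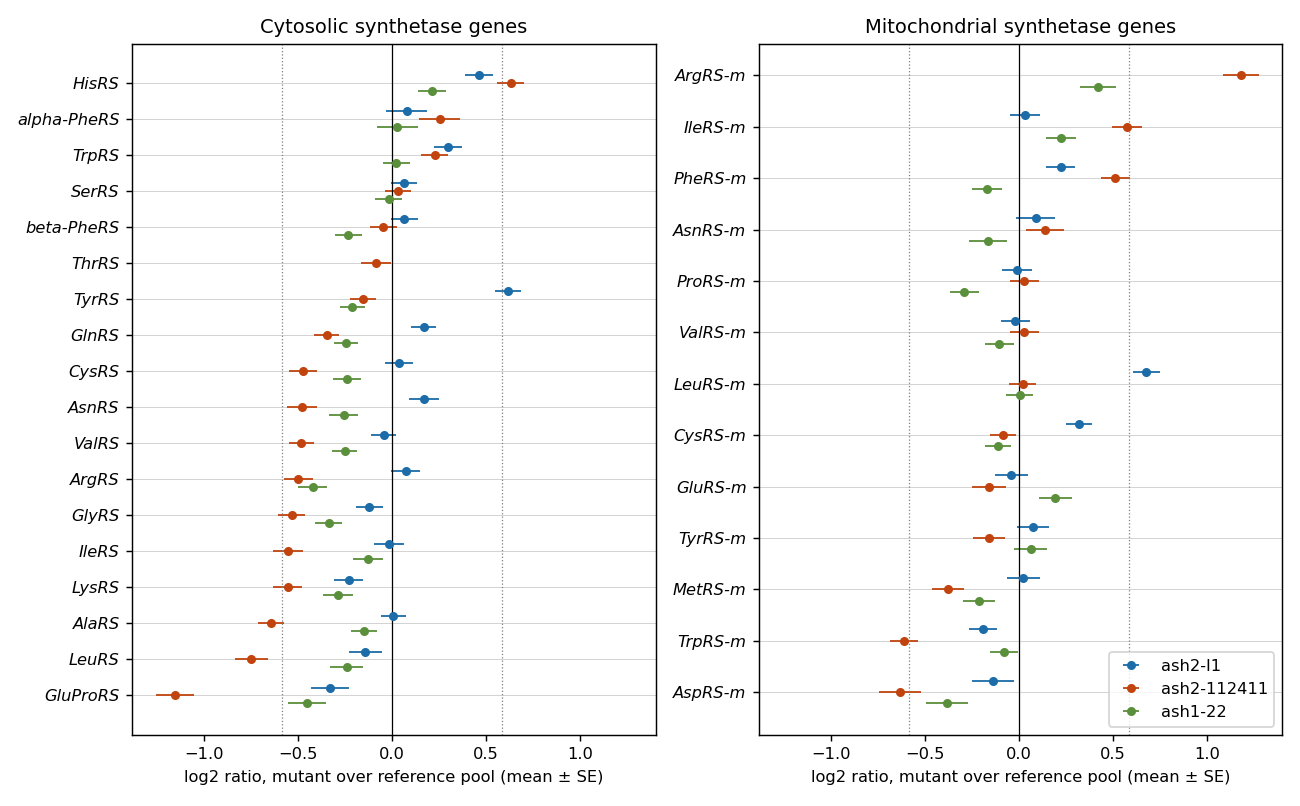
Log2 ratio of mutant over reference for each synthetase gene (horizontal axis), with genes ordered by their value in ash2-112411 and 1 colour per allele. Points are means of 2 extractions, bars are ± SE and dotted lines mark 1.5-fold. Most cytosolic genes sit left of 0 in ash2-112411, down to −1.15 for GluProRS, while the mitochondrial genes spread to both sides, from −0.63 for AspRS-m to 1.18 for ArgRS-m.

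Cytosolic synthetase transcripts were mostly lower in ash2-112411 discs. GluProRS, LeuRS and AlaRS fell and HisRS rose. Of the 18 cytosolic genes, 14 were below 0, and the median was −0.48 against −0.001 over all genes tested in this allele. A fall past 1.5-fold was found for 3 of 18, beside 8.63% of the 9686 genes tested, and a rise for 1 of 18, beside 8.35%.

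GluProRS, a bifunctional enzyme that charges the tRNAs of both glutamate and proline, was the lowest of all synthetase genes in this allele. Its 4 arrays read −1.56 and −0.54 in extraction 1 and −1.54 and −0.97 in extraction 2, with the mutant in Cy5 first and in Cy3 second. The mean was −1.15 ± 0.10, or 0.450 of the reference level (adjusted p = 0.00021). Every array lay below 0, and on both extractions the Cy5 array was the lower. LeuRS, for leucine, read −0.80, −0.57, −0.996 and −0.62 in the same order, with a mean of −0.75 ± 0.09 (0.596 of the reference, adjusted p = 0.00058). AlaRS, for alanine, read −0.56, −0.61, −0.76 and −0.64, with a mean of −0.64 ± 0.07 (0.641 of the reference, adjusted p = 0.00039). The AlaRS arrays lay close together, whichever dye the mutant carried. Without extraction 2 of ash2-112411, GluProRS (−1.05) and LeuRS (−0.69) kept the call, and AlaRS was just short of 1.5-fold at −0.584 (adjusted p = 0.007).

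HisRS, which charges the tRNA of histidine, went the other way. Its arrays read 0.74, 0.36, 0.94 and 0.47, for a mean of 0.63 ± 0.07, or 1.549 times the reference (adjusted p = 0.00057). All 4 arrays were above 0, and the Cy5 arrays were the higher of each pair. Without extraction 2 it was at 0.56, short of 1.5-fold. With the arrays of all alleles brought to a common scale, GluProRS (−0.91) and LeuRS (−0.585) of the cytosolic genes kept their call in this allele. AlaRS, at −0.50 (adjusted p = 0.0031), and HisRS, at 0.50 (adjusted p = 0.0042), were then short of 1.5-fold.

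A larger set moved in ash2-112411 when the fold threshold was set aside. At an adjusted p under 0.05 alone, 11 of the 18 cytosolic genes were lower, beside 26.4% of all genes tested, and 2 were higher, beside 24.0%. The 11 genes charge alanine, arginine, asparagine, cysteine, glutamine, glutamate with proline, glycine, isoleucine, leucine, lysine and valine, and those short of 1.5-fold ranged from −0.56 for LysRS to −0.35 for GlnRS. The 2 higher genes were HisRS and TrpRS, for tryptophan. TrpRS did not pass with the 4 arrays as replicates (adjusted p = 0.051) or with the allele fitted on its own (adjusted p = 0.063). Nor did it pass on a common scale (adjusted p = 0.11) or with the mean of its probes (adjusted p = 0.051). Among the 16 cytosolic genes measured on all 4 arrays, 11 were below 0 on every array, beside 31.3% of all genes with 4 arrays, and 2 were above 0 on every array, beside 21.7%. The median over the cytosolic genes was −0.23, −0.49, −0.52 and −0.49 on the 4 arrays. It was nearest to 0 on the Cy5 array of extraction 1, the pair of arrays on which the dyes differed most, with a median gap of 0.44 between the dyes over the synthetase genes against 0.11 to 0.25 in the other extractions.

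In ash1-22 discs the same class was lower by a smaller amount on the deposited scale, and no cytosolic gene passed the threshold. The median over 17 cytosolic genes was −0.24, against 0.008 over all genes tested, and 14 of the 17 were below 0. No gene rose or fell, beside 1.80% and 1.18% of the 8108 genes tested. By the limma fit, 11 were lower at an unadjusted p under 0.05, beside 16.7% of all genes, and 1 was higher, beside 13.4%. At an adjusted p under 0.05 alone 3 cytosolic genes were lower, beside 6.54% of all genes, and none was higher, beside 4.87%. Of those 3, GluProRS was the lowest, at −0.44, −0.52, −0.39 and −0.47 and a mean of −0.45 ± 0.10 (adjusted p = 0.0335). ArgRS, for arginine, followed at −0.42 ± 0.08 (adjusted p = 0.0175), with its arrays between −0.50 and −0.39. GlyRS, for glycine, was the remaining gene. In extractions 1 and 2 GluProRS was at −0.48 and −0.43 and ArgRS at −0.39 and −0.45. With either extraction left out neither gene passed, in fits where the remaining extraction has no spread of its own. With the 4 arrays as replicates ArgRS passed (adjusted p = 0.0012) and GluProRS did not (adjusted p = 0.15). With ash1-22 fitted on its own GluProRS (adjusted p = 0.00093) and ArgRS (adjusted p = 0.0014) passed, beside 1365 of all 8108 genes lower.

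The highest cytosolic value in ash1-22 was that of HisRS, at 0.31, 0.25, 0.21 and 0.079 and a mean of 0.21 ± 0.07 (adjusted p = 0.1085). Of the 15 cytosolic genes with 4 arrays, 8 were below 0 on every array, beside 32.6% of all such genes, and 1 was above 0 on every array, beside 20.4%. The array medians were −0.16, −0.27, −0.22 and −0.19, so no array carried the shift by itself. The deposited values were scaled within each allele only. The spread of an array (median absolute deviation) ran from 0.13 to 0.17 in ash1-22 and from 0.27 to 0.31 in ash2-112411. A common scale gives all arrays the same spread, so it widens ash1-22 values and narrows ash2-112411 values by construction. Brought to a common scale across the 12 arrays, the ash1-22 median was −0.35 and the ash2-112411 median was −0.36. GluProRS (−0.68) and ArgRS (−0.64) then fell in ash1-22. Over all 8108 genes tested in ash1-22, 346 fell on that scale, against 96 on the deposited one.

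In ash2-I1 discs the cytosolic genes as a class stayed near the reference. The median over 17 genes was 0.065, against 0.024 over all genes tested, with 11 above 0 and 6 below. TyrRS rose, which is 1 of 17 beside 5.44% of the 6874 genes tested, and none fell, beside 6.74%. At an adjusted p under 0.05 alone, 3 were higher, beside 17.9%, and 1 was lower, beside 19.9%. Of the 16 cytosolic genes with 4 arrays, 6 were above 0 on every array, beside 25.2%, and 1 was below 0 on every array, beside 23.7%.

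TyrRS, which charges the tRNA of tyrosine, read 0.20 and 1.16 in extraction 1 and 0.21 and 0.91 in extraction 2. The mean was 0.62 ± 0.07, or 1.533 times the reference (adjusted p = 0.00054). The extractions agreed within each dye, but the Cy3 arrays stood far above the Cy5 arrays in both, and the dyes did not overlap. From the Cy5 arrays alone the ratio was 0.20 (adjusted p = 0.077), and from the Cy3 arrays alone 1.03 (adjusted p = 3e-05). Without extraction 1 the gene was at 0.56, short of 1.5-fold.

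GluProRS was again the lowest cytosolic gene in ash2-I1, at −0.33 ± 0.10 (adjusted p = 0.0364). Its arrays read −0.63, 0.33, −0.79 and −0.23. They lay on both sides of 0, and the Cy3 arrays alone gave 0.048 against −0.71 for the Cy5 arrays, so its direction in this allele changed with the dye.

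**Figure D2:**
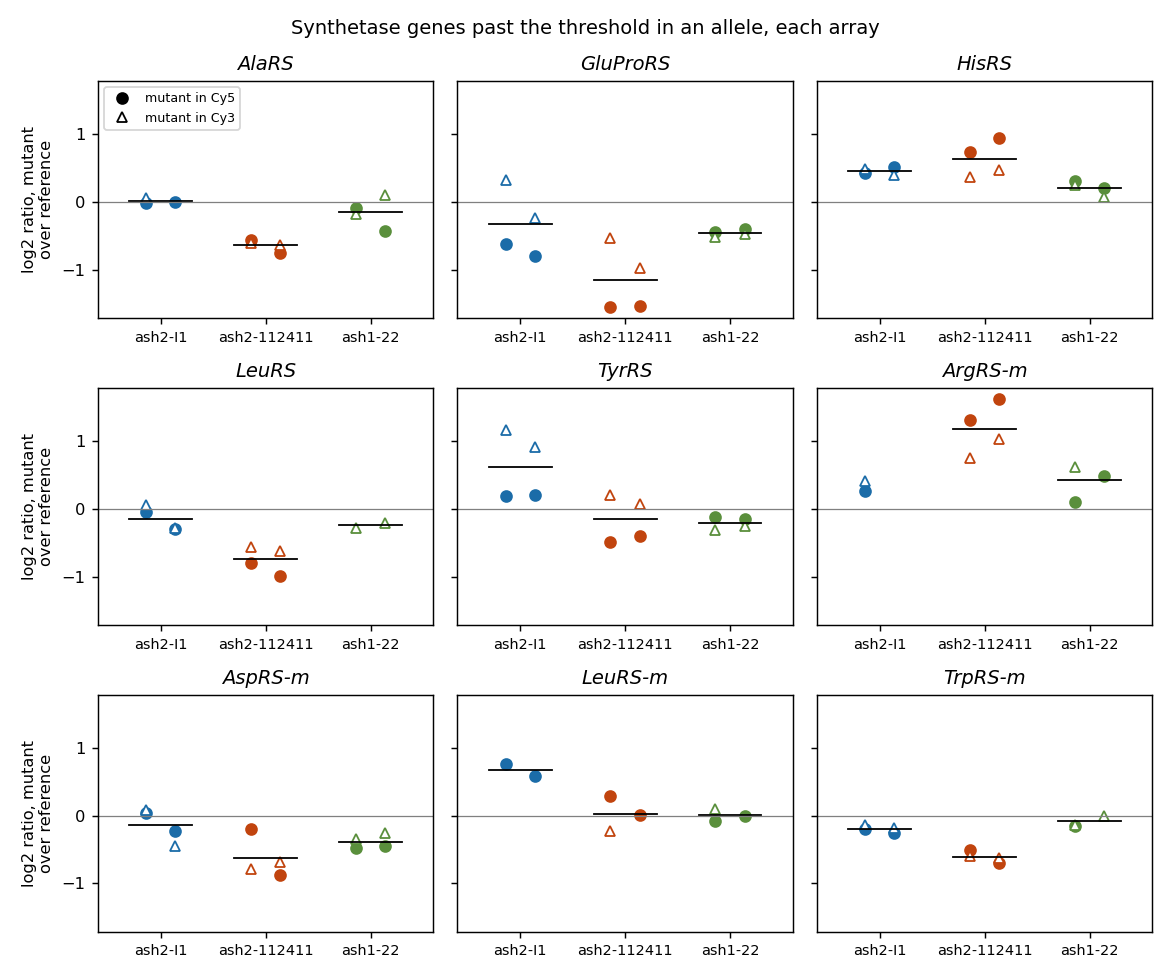
Log2 ratio of mutant over reference on each array for the 9 synthetase genes that rose or fell in an allele. Filled circles have the mutant in Cy5 and open triangles in Cy3, the left and right columns of an allele are extractions 1 and 2, and lines are means of the extractions. The dyes separate widely for TyrRS in ash2-I1 and for GluProRS in both ash2 alleles, and TrpRS-m and AlaRS have narrow spreads in ash2-112411.

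The mitochondrial genes moved in both directions, and their medians stayed near 0. Over the genes tested, the median was 0.029 in ash2-I1 (12 genes), 0.021 in ash2-112411 (13 genes) and −0.10 in ash1-22 (13 genes). In ash2-112411 ArgRS-m rose, 1 of 13 beside 8.35% of all genes, and AspRS-m and TrpRS-m fell, 2 of 13 beside 8.63%. At an adjusted p under 0.05 alone, 3 were higher and 3 lower in that allele, beside 24.0% and 26.4% of all genes, so these shares were near those of all genes. In ash2-I1 LeuRS-m rose, 1 of 12 beside 5.44%, and none fell, beside 6.74%. In ash1-22 none rose or fell, beside 1.80% and 1.18%, and ArgRS-m alone passed the adjusted p, beside 4.87% of all genes higher.

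ArgRS-m gave the highest value of any synthetase gene, in ash2-112411. Its arrays read 1.32 and 0.75 in extraction 1 and 1.63 and 1.03 in extraction 2. The mean was 1.18 ± 0.09, or 2.269 times the reference (adjusted p = 0.00025). All arrays were above 0.7, with Cy5 above Cy3 in both extractions, and the call held in every alternative fit tried. In ash1-22 it was also the highest synthetase gene, at 0.11, 0.62 and 0.48 on 3 arrays and a mean of 0.42 ± 0.09 (adjusted p = 0.0403). On a common scale it was at 0.68 in ash1-22 and past 1.5-fold. It passed the adjusted p there with ash1-22 fitted on its own (0.0017). It did not with the 4 arrays as replicates (0.17) or with the Cy5 arrays alone (0.23). Extraction 1 was at 0.36 and extraction 2, measured with the mutant in Cy5 only, at 0.48. With either left out it did not pass, in fits where the remaining extraction has no spread of its own.

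AspRS-m, for mitochondrial aspartate, was the lowest mitochondrial gene in ash2-112411. It read −0.20, −0.79, −0.87 and −0.68, with a mean of −0.63 ± 0.11, or 0.645 of the reference (adjusted p = 0.0029). The first array was well apart from the other 3. TrpRS-m, for mitochondrial tryptophan, read −0.51, −0.59, −0.71 and −0.63, with a mean of −0.61 ± 0.07 (0.656 of the reference, adjusted p = 0.00063). These arrays agreed closely, and neither gene was past 1.5-fold without extraction 2, at −0.49 for AspRS-m and −0.55 for TrpRS-m. On a common scale AspRS-m was at −0.48 (adjusted p = 0.017) and TrpRS-m at −0.47 (adjusted p = 0.0057). In ash1-22 AspRS-m was likewise the lowest mitochondrial gene, at −0.38 ± 0.11 (adjusted p = 0.0692), with all 4 arrays below 0, from −0.48 to −0.26.

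LeuRS-m, for mitochondrial leucine, was the highest synthetase gene in ash2-I1. It was measured only on the 2 arrays with the mutant in Cy5, at 0.77 and 0.59, so a dye effect does not cancel in its mean of 0.68 ± 0.07, or 1.600 times the reference (adjusted p = 0.00048). The lowest mitochondrial gene of that allele was TrpRS-m, at −0.19 ± 0.07 (adjusted p = 0.0803), with its 4 arrays from −0.26 to −0.14. CysRS-m, for mitochondrial cysteine, was higher at the adjusted p alone, at 0.53, 0.16, 0.50 and 0.083 and a mean of 0.32 ± 0.07 (adjusted p = 0.0096), with all arrays above 0 and the Cy5 arrays the higher.

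**Figure D3:**
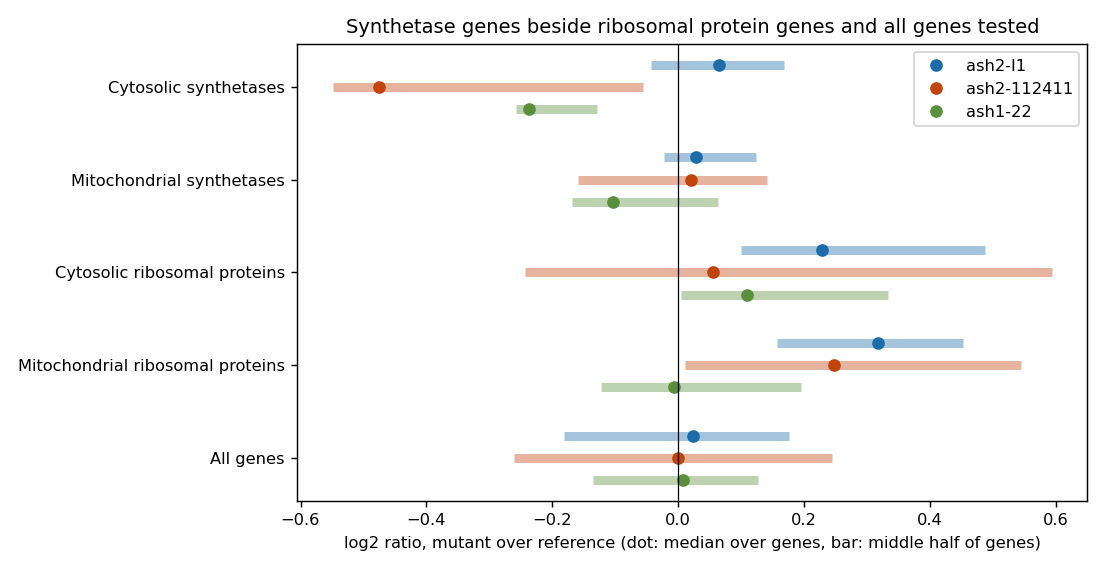
Log2 ratio of mutant over reference (horizontal axis) for the synthetase classes, the ribosomal protein genes and all genes tested, by allele. Dots are medians over genes and bars span the middle 50% of genes. The cytosolic synthetases stand to the left in ash2-112411, at −0.48, and in ash1-22, at −0.24, and the mitochondrial ribosomal proteins stand to the right in both ash2 alleles.

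The synthetase genes did not share the position of the ribosomal protein genes, which code for the other main part of the translation machinery. Mitochondrial ribosomal protein genes had medians of 0.32 in ash2-I1 and 0.25 in ash2-112411 and −0.007 in ash1-22. Of them, 6 of 64, 16 of 67 and 3 of 67 rose in the 3 alleles in that order, beside 5.44%, 8.35% and 1.80% of all genes, and none fell. The mitochondrial synthetases, at 0.029, 0.021 and −0.10, were lower in each allele. Cytosolic ribosomal protein genes had medians of 0.23, 0.056 and 0.11, above those of the cytosolic synthetases in every allele. These are descriptions of the lists, with no test between them.

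For amino acids with both a cytosolic and a mitochondrial gene, the cytosolic gene mostly had the lower ratio. In ash2-112411 this held for 10 of 12 pairs, with a median difference of −0.59. In ash1-22 it held for 10 of 12, with a median of −0.16, and in ash2-I1 for 8 of 11, with a median of −0.14. Pairs with GluProRS or PheRS-m share a gene and are not separate counts. The widest gap was that of arginine in ash2-112411, where ArgRS was at −0.50 ± 0.08 and ArgRS-m at 1.18 ± 0.09. Isoleucine followed the same pattern, with IleRS at −0.55 ± 0.08 and IleRS-m at 0.58 ± 0.08, the latter at 1.493 times the reference.

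Proline and leucine differed in a second way, with the cytosolic gene low and the mitochondrial one at the reference level. In ash2-112411 GluProRS at −1.15 stood beside ProRS-m at 0.030 ± 0.078 and GluRS-m at −0.16 ± 0.09, and LeuRS at −0.75 beside LeuRS-m at 0.021 ± 0.073. Asparagine, cysteine and valine did the same on a smaller scale, with AsnRS, CysRS and ValRS between −0.48 and −0.47 and their mitochondrial partners between −0.082 and 0.14. For phenylalanine, whose cytosolic enzyme is built of alpha and beta subunits, alpha-PheRS was at 0.25 ± 0.11 and beta-PheRS at −0.046 ± 0.072, below PheRS-m at 0.51 ± 0.08. The beta-PheRS arrays were above 0 with the mutant in Cy5 (0.44 and 0.15) and below 0 with it in Cy3 (−0.44 and −0.33). Tryptophan was reversed, with TrpRS at 0.23 ± 0.07 above TrpRS-m at −0.61. Tyrosine showed no gap, with TyrRS at −0.15 ± 0.07 and TyrRS-m at −0.16 ± 0.09.

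**Figure D4:**
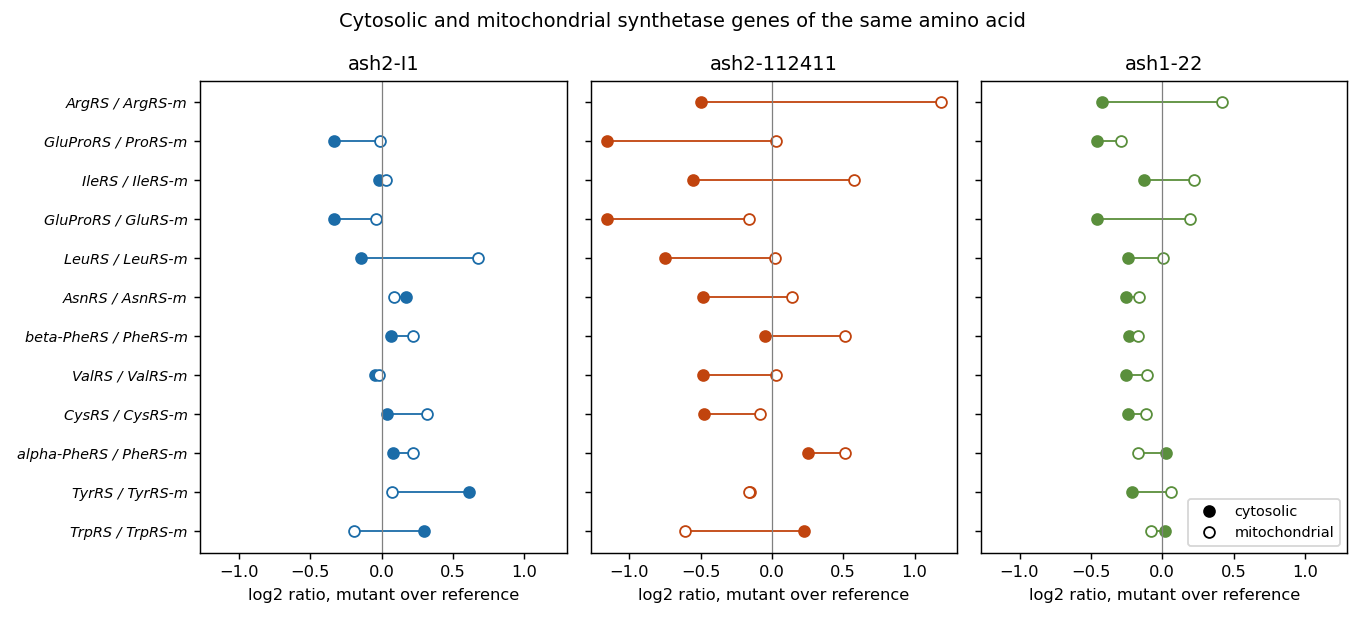
Log2 ratio of mutant over reference for the cytosolic gene (filled) and the mitochondrial gene (open) of the same amino acid, joined by a line, in each allele. Pairs are ordered by the difference in ash2-112411. The widest is ArgRS and ArgRS-m in that allele, and TrpRS lies above TrpRS-m in all 3 alleles.

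In ash2-I1 the widest of these gaps was that of leucine, with LeuRS at −0.14 ± 0.09 and LeuRS-m at 0.68. TyrRS, at 0.62, was above TyrRS-m at 0.075 ± 0.086 there, and TrpRS, at 0.30 ± 0.07, above TrpRS-m at −0.19. In ash1-22 the widest was again arginine, at −0.42 against 0.42, and then GluProRS at −0.45 against GluRS-m at 0.20 ± 0.09. TyrRS and GluRS-m are neighbouring genes. TyrRS moved in ash2-I1, while GluRS-m there was at −0.040 ± 0.089 (adjusted p = 0.7569). No mitochondrial gene is named for glutamine, glycine, histidine, lysine or threonine in the gene table, and in humans the glycine and lysine genes are known to supply both compartments.

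The alleles were then compared with each other in the same fit, in which the pool cancels. Between ash2-I1 and ash2-112411, 16 of 29 synthetase genes were higher in ash2-I1 at an adjusted p under 0.05, beside 20.0% of the 6331 genes tested, and 1 was lower, beside 12.1%. The 16 were 11 of 17 cytosolic and 5 of 12 mitochondrial genes. The median difference was 0.51 over the cytosolic genes and 0.18 over the mitochondrial ones, against 0.098 over all genes. The widest were GluProRS, at 0.82 (95% confidence interval 0.49 to 1.16, adjusted p = 0.0077), TyrRS, at 0.77 (0.54 to 0.99, adjusted p = 0.0034), and LeuRS-m, at 0.66 (0.42 to 0.90, adjusted p = 0.006). The gene that was lower in ash2-I1 was IleRS-m, at −0.54 (−0.81 to −0.28, adjusted p = 0.0129). Fewer genes differed without extraction 2 of ash2-112411, in a fit with 1 extraction of that allele. No share over all genes is given for that fit.

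Between ash2-I1 and ash1-22, 7 of 29 were higher in ash2-I1, beside 11.8% of the 5703 genes tested, and none was lower, beside 11.2%. All 17 cytosolic genes had a higher value in ash2-I1, by 0.049 to 0.83, of which 4 passed the test, and 3 of 12 mitochondrial genes passed. The widest were TyrRS, at 0.83 (0.60 to 1.05, adjusted p = 0.0018), LeuRS-m, at 0.67 (0.43 to 0.92, adjusted p = 0.0048), and ArgRS, at 0.50 (0.24 to 0.75, adjusted p = 0.0165). Fewer genes differed with either extraction of ash1-22, or extraction 1 of ash2-I1, left out, in fits with 1 extraction of that allele. On a common scale 12 genes differed. No share over all genes is given for these fits.

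Between ash2-112411 and ash1-22, 3 of 30 were higher in ash2-112411, beside 12.5% of the 7292 genes tested, and 5 were lower, beside 14.6%. The higher genes were HisRS, at 0.42 (0.17 to 0.66, adjusted p = 0.0273), ArgRS-m, at 0.76 (0.44 to 1.08, adjusted p = 0.0115), and PheRS-m, at 0.68 (0.42 to 0.94, adjusted p = 0.0079). The lower genes were AlaRS, GluProRS, IleRS, LeuRS and TrpRS-m, of which GluProRS had the widest difference, at −0.70 (−1.03 to −0.36, adjusted p = 0.0141). The difference between these alleles depended on how the arrays were scaled, and a common scale brings them nearer by construction. That scale assumes the same overall spread of changes in each allele, which was not tested. On a common scale 1 gene differed, and GluProRS was at −0.24 (adjusted p = 0.34) and ArgRS-m at 0.25 (adjusted p = 0.29). Fewer genes also differed with either extraction of ash1-22, or extraction 2 of ash2-112411, left out, in fits with 1 extraction of that allele. No share over all genes is given for these fits.

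On the deposited scale, the cytosolic genes tested in all alleles had a common order. Of 17, 11 were lowest in ash2-112411, between in ash1-22 and highest in ash2-I1, and 15 were highest in ash2-I1. Over all 5422 genes tested in every allele the medians had the same order, at −0.11, −0.024 and 0.004. Of all genes tested in both ash2 alleles, 3942 of 6331 had the higher value in ash2-I1. Of 12 mitochondrial genes, 3 had that order. Neighbours in it often did not differ: between ash2-112411 and ash1-22, 4 of the 17 cytosolic genes were lower in ash2-112411 by the test. SerRS, for serine, was close to the reference in every allele, and its interval between ash2-I1 and ash2-112411 ran from −0.20 to 0.27. In each of the 6 extractions SerRS was above 0 with the mutant in Cy5 and below 0 with it in Cy3, and the extraction means lay between −0.080 and 0.11.

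By known properties of the enzymes, genes with low values in ash2-112411 were found in both catalytic classes, the unrelated folds on which synthetases are built. The median was −0.48 over 8 cytosolic genes of class I, of which 6 were lower at an adjusted p under 0.05, beside 26.4% of all genes. It was −0.085 over 9 of class II, of which 4 were lower, beside the same 26.4%: AlaRS (−0.64), LysRS (−0.56), GlyRS (−0.53) and AsnRS (−0.48). HisRS, SerRS, ThrRS and the alpha and beta subunits for phenylalanine are the other class II genes. GluProRS joins an enzyme of each class and was left out of both. In mammals a set of the cytosolic synthetases forms a large complex with scaffold proteins. This grouping was chosen with the values known and was not tested. Its fly counterparts measured here were ArgRS, GlnRS, GluProRS, IleRS, LeuRS and LysRS. In ash2-112411, 6 of 6 were lower at an adjusted p under 0.05, with a median of −0.55. Of the 12 other cytosolic genes 5 were lower, with a median of −0.12. Over all genes tested the share was 26.4%. In ash1-22 the median of the 6 counterparts was −0.26, and in ash2-I1 −0.081.

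The third chromosome, which was each stock's own, holds 7 of the cytosolic and 8 of the mitochondrial genes. In ash2-112411 the cytosolic median was −0.35 for genes on it and −0.48 for the 11 on other chromosomes, and in ash1-22 −0.23 and −0.24. The part of that chromosome in these values was not tested. For the mitochondrial genes in ash2-112411 the medians were 0.025 and −0.082.

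Of the 3 genes with a second probe, IleRS had probes that disagreed in ash2-112411. The probe used lay at −0.55 on 4 arrays, while the other, measured only with the mutant in Cy3, lay at 0.49 ± 0.12 (adjusted p = 0.0139). The direction given for IleRS rests on the former. The ThrRS probes lay at −0.085 ± 0.079 and −0.34 ± 0.08 in that allele, and the TrpRS probes at 0.23 and 0.053.

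Other genes of tRNA charging and its control were counted from lists by name. Of the synthetase scaffold and charging helper genes, 1 of 6 rose for ash2-I1, 2 of 6 for ash2-112411 and none of 7 for ash1-22, beside 5.44%, 8.35% and 1.80% of all genes, and none fell. The scaffold genes AIMP1, AIMP2 and AIMP3 were at 0.21, 0.11 and 0.080 in ash2-112411. None of them passed the adjusted p in any allele. Dtd, which removes D-amino acids wrongly joined to a tRNA, rose in ash2-I1 (1.11 ± 0.07, adjusted p = 7.7e-05) and in ash2-112411 (1.14 ± 0.07, adjusted p = 0.00011), and was at 0.038 in ash1-22. GatA, a subunit of the enzyme that makes the glutamine-charged tRNA of mitochondria, rose in ash2-112411, to 0.76 ± 0.11 (adjusted p = 0.0013). The gene for crc, the fly counterpart of the amino acid response factor ATF4, fell in ash2-112411, to −0.93 ± 0.09 (adjusted p = 0.00028), and was at 0.044 in ash2-I1 and −0.074 in ash1-22. Of the 11 genes on the amino acid response list, 8 were tested for ash2-112411 and 7 for each of the other alleles. Of those tested crc alone rose or fell, 1 of 8 beside 8.63% of all genes fallen in ash2-112411. At an adjusted p under 0.05 alone, 4 of 7 were higher in ash2-I1, beside 17.9%, and none lower, beside 19.9%. In ash2-112411 1 was higher, beside 24.0%, and 2 lower, beside 26.4%. In ash1-22 1 was higher, beside 4.87%, and none lower, beside 6.54%. None of the 3 elongation factors tested and none of the 9, 10 and 7 mitochondrial translation factors tested rose or fell. At an adjusted p under 0.05 alone, 2 of the 3 elongation factors were lower in ash2-112411, beside 26.4% of all genes. Of the mitochondrial translation factors, 3 of 9 were higher in ash2-I1, beside 17.9%, and none lower. In ash2-112411 2 of 10 were higher, beside 24.0%, and 2 lower, beside 26.4%, and in ash1-22 none passed.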

How the data were processed

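Wing disc RNA of 3 mutants was compared with 1 reference pool on 12 dual-channel arrays. The deposited values are the authors' log2 ratios of Cy5 over Cy3. By the study's methods, spots of low quality were removed, background was corrected by normexp, arrays were normalized by OLIN, and values were scaled within the 4 arrays of an allele, with limma named in the submitters' notes. The sign was turned on arrays whose mutant RNA was in Cy3. The files give no signal over background, and the number of arrays limits the precision. A probe was named where the platform annotation gave 1 gene (13164 of 16416 spots), with symbols updated through RefSeq (Release 6 assembly) by gene ID or accession, and 101 probes with several genes were left out.

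After averaging the dye-swapped arrays, a mean per allele was fitted to the 6 extractions with limma 3.58.1 (R 4.3.3, 11610 probes). A probe was tested where both extractions had a value. The pool was treated as the zero of each ratio. Adjusted p-values cover all probes tested in an allele, and medians, counts and shares over lists use 1 probe per gene. The script was tested on simulated data. Named were the genes called in an allele, the highest and lowest of each class and allele, the 3 largest differences of each pair of alleles, and the pairs of the same amino acid. The genes and lists were chosen with earlier results of these data known. Alternatives were the arrays as replicates, each allele fitted alone, a common scale, centring, measurement on all arrays, the mean of a gene's probes, no fold threshold, a replicate block and each extraction left out. Fits to the arrays of 1 dye were added after seeing the data. Where the fit lacked 1 extraction of an allele, the lone extraction was assumed to vary like the other alleles.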

Additional observations from a re-analysis of the deposited data

Results flagged for a closer look

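For 70 sets of 4 arrays of a synthetase gene in an allele, the array farthest from the others was compared with the range of the set. The cutoff was passed by 4 sets, a share near the about 1 in 20 that chance gives. That chance share assumes independent arrays, while these are dye-swapped pairs. ArgRS in ash1-22 was at −0.497 on 1 array, with the others from −0.406 to −0.388. LysRS in ash1-22 was at −0.469 on 1 array against −0.237 to −0.216. The gene beta-PheRS in ash1-22 was at −0.427 on 1 array against −0.181 to −0.157. TyrRS-m in ash2-112411 was at 0.228 on 1 array against −0.330 to −0.267, so that its mean of −0.160 has a single array on the other side of 0.

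The widest differences between alleles stood out by the limma contrasts given in the results. ash2-I1 exceeded ash2-112411 by 0.822 for GluProRS, 0.769 for TyrRS and 0.657 for LeuRS-m. It exceeded ash1-22 by 0.827 for TyrRS, 0.674 for LeuRS-m and 0.495 for ArgRS. ash2-112411 exceeded ash1-22 by 0.761 for ArgRS-m and 0.683 for PheRS-m, and for GluProRS the difference was −0.699. The TyrRS and LeuRS-m values of ash2-I1 rest on arrays whose dyes differ widely or on 1 dye alone.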

How the results depend on the processing

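On a common scale for all arrays, 1 gene rose and 2 fell both in ash2-112411 and in ash1-22. Over all genes tested on that scale, 478 rose and 418 fell of 9686 in ash2-112411, and 324 and 346 of 8108 in ash1-22. The medians for cytosolic genes were then 0.030 (ash2-I1), −0.364 (ash2-112411) and −0.347 (ash1-22). On that scale 10 genes differed between ash2-I1 and ash2-112411, 12 between ash2-I1 and ash1-22 and 1 between ash2-112411 and ash1-22. No share over all genes is given for these differences. With no fold threshold, 5 genes were higher and 1 lower in ash2-I1, 5 and 14 in ash2-112411 and 1 and 3 in ash1-22. Using only probes measured on all 4 arrays, 1 gene rose in ash2-I1 (LeuRS-m was not tested), beside 230 of all 4174 genes. The mitochondrial median in ash2-112411 was then −0.120. Centring each array gave medians of 0.048 for cytosolic genes in ash2-I1 and 0.052 for mitochondrial genes in ash2-112411.

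With the Cy5 arrays alone, ash2-I1 had 1 gene risen and 1 fallen, beside 482 and 527 of all 5576 genes tested. In ash2-112411 4 rose, beside 834 of 7604. Between those alleles 10 differed, with no share over all genes given. The medians were 0.070 (cytosolic, ash2-I1), −0.167 (cytosolic, ash1-22) and −0.042 (mitochondrial, ash2-112411). With the Cy3 arrays alone, ash2-I1 had 1 gene risen, beside 279 of all 5210 genes tested. In ash2-112411 1 rose and 9 fell, beside 1025 and 939 of 7949. Between ash2-I1 and ash1-22 4 differed, with no share over all genes given. The medians were −0.063 (cytosolic, ash2-I1), 0.073 (mitochondrial, ash2-I1) and −0.109 (mitochondrial, ash2-112411). GluProRS in ash2-I1 changed sign with the Cy3 arrays alone, to 0.048. With the 4 arrays as replicates, GluProRS (adjusted p = 0.15) and ArgRS-m (adjusted p = 0.17) no longer passed in ash1-22. Nor did GluProRS in ash2-I1 (adjusted p = 0.19) or TrpRS in ash2-112411 (adjusted p = 0.051). The GluProRS difference between ash2-112411 and ash1-22 did not pass either (adjusted p = 0.078). Except where an alternative's own construction leaves out arrays or a threshold, or equalizes the spread of the arrays, the cause was not tested.

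Leaving out an extraction gave 1 to 2 genes that rose in ash2-I1, 1 to 4 that rose and 2 to 7 that fell in ash2-112411, and none in ash1-22. The counts that differed ran from 6 to 18 between ash2-I1 and ash2-112411, 2 to 8 between ash2-I1 and ash1-22 and 0 to 9 between ash2-112411 and ash1-22. The medians ran from 0.054 to 0.065 (cytosolic, ash2-I1), −0.528 to −0.391 (cytosolic, ash2-112411), −0.250 to −0.204 (cytosolic, ash1-22), 0.029 to 0.116 (mitochondrial, ash2-I1), −0.025 to 0.021 (mitochondrial, ash2-112411) and −0.131 to −0.030 (mitochondrial, ash1-22). The extraction numbers did not pair the samples (correlations of deviations 0.091, −0.046 and −0.134 between alleles). With the number as a replicate block, ash2-I1 had 2 genes risen, beside 375 of all 6612 genes tested. In ash2-112411 2 rose and 5 fell, beside 724 and 814 of 8201. These synthetase counts were the same as without the block. Between alleles 16, 6 and 8 genes differed, with no share over all genes given. TrpRS in ash2-112411 no longer passed with the block (adjusted p = 0.05), as in other alternatives given above.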
